A study of Mus musculus with 8 samples.

Results

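The mitochondrial respiratory chain genes comprised 113 of the 32531 rows of the gene count table. They were chosen by symbol, as the rows starting with mt-Nd, mt-Co, mt-Atp, mt-Cyt, Nduf, Uqcr, Atp5, Cox4i, Cox5, Cox6, Cox7 or Cox8, with Sdha, Sdhb, Sdhc, Sdhd, Cyc1 and Cycs added. Of these, 13 were mitochondrially encoded and 100 nuclear-encoded. The nuclear rows were 36 complex I subunits, 7 complex I assembly factors of the Ndufaf family, 4 complex II subunits, 9 complex III subunits, 20 complex IV subunits, 15 ATP synthase subunits, cytochrome c (Cycs), 6 annotated pseudogenes, and Atp5s and Atp5sl, which are named after ATP synthase without being subunits of it.

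Pancreatic islets were taken from 4 control mice and from 4 β-tetO-NICD mice, and profiled by poly(A) RNA-Seq after 8 weeks of doxycycline (Dox). NICD is the intracellular, constitutively active part of a Notch receptor. β-tetO-NICD mice carried RIP-Cre, Rosa26-rtTA and tetO_NICD, so that Dox switched the transgene on in cells in which the rat insulin promoter had driven Cre. Controls carried RIP-Cre and Rosa26-rtTA without tetO_NICD, all mice were given Dox, and all were on a mixed C57BL/6J, 129X1/SvJ and BALB/c background. RIP-Cre can also be active outside β cells, in particular in the brain, and it was present in both groups. Ages were not given with the samples. The methods describe the islets as male, whereas the Y-linked gene Eif2s3y had at most 1 count in controls 1 and 3 and in 3 of the β-tetO-NICD libraries (1, 2 and 4), so the sex of these mice is uncertain. The count columns of the β-tetO-NICD group are numbered 1, 2, 4 and 5, and are called β-tetO-NICD libraries 1, 2, 4 and 5 here.

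Library totals ranged from 21701223 to 26413146 counts. Notch1, part of which the transgene encodes, had 1051 to 1562 counts in controls and 11388 to 36628 in the β-tetO-NICD libraries (log2 fold change 4.18 ± 0.30 SE, adjusted p = 0.000102, edgeR's quasi-likelihood test, Benjamini-Hochberg adjusted). Summed β cell markers held 16.5% to 19.3% of counts in controls and 7.01% to 15.3% in the β-tetO-NICD libraries, with 3 of 9 lower. Summed α cell markers held 1.17% to 4.21% against 6.03% to 6.86%, with 3 of 6 higher. Summed δ cell markers held 0.257% to 0.641% against 0.492% to 1.37%, with 1 of 3 higher (Hhex). Acinar enzyme genes held 6.85% to 12.3% against 6.21% to 17.6%, with 0 of 14 called, and no marker of these lists was at 0 in every library. Of 6 macrophage markers 1 was called higher (C1qa), and no ductal or endothelial marker was called. Of all tested genes, 4.19% were called higher and 2.57% lower. In bulk islets, fewer cells of a type and less RNA per cell cannot be told apart, and the part of cell composition in the results below was not tested.

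The respiratory chain passes electrons from NADH (complex I) and succinate (complex II) through complex III and cytochrome c to oxygen at complex IV, and the resulting proton gradient drives ATP synthase. In β cells the ATP made from glucose closes potassium channels and so triggers insulin secretion. Most subunits are encoded in the nucleus, many by short mRNAs, whereas a core of hydrophobic subunits of every complex but complex II is transcribed from the circular mitochondrial genome as long precursors that are cut at tRNAs. mt-Nd4l and mt-Nd4 share one mature mRNA, as do mt-Atp8 and mt-Atp6. In each, the reading frames overlap, with mt-Nd4l and mt-Atp8 lying at the 5′ end.

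The overlaps are shown because the counts of the first frames did not move in step with those of the second frames. All are on the plus strand of chrM in GRCm38 (sequences from GENCODE M21), and capitals mark the bases that belong to both frames, 43 bases at chrM:7927-7969 and 7 bases at chrM:10167-10173.
mt-Atp8, its last 100 bases (chrM:7870-7969): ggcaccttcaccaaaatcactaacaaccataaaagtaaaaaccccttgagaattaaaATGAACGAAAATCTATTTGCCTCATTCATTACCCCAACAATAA
mt-Atp6, its first 100 bases (chrM:7927-8026): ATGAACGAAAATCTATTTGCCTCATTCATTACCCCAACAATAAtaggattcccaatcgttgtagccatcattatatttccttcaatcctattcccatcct
mt-Nd4l, its last 100 bases (chrM:10074-10173): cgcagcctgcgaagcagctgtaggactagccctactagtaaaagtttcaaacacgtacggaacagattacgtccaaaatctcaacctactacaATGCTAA
mt-Nd4, its first 100 bases (chrM:10167-10266): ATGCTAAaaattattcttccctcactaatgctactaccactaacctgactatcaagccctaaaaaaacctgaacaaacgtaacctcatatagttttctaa

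For the nuclear-encoded members, short stretches of promoter are shown as a description of the genes, and their part in the fold changes was not tested. Windows from 250 bases before to 50 after the gene start (RefSeq, GRCm38.p6) were found for 74 of the 94 nuclear members that are not pseudogenes, 79 windows in all. The 8 letters CGCATGCG, the palindromic core of sites for the transcription factor Nrf1, stood in 12 of 79 windows (15.2%), beside 615 of all 32851 windows of that length (1.87%). The 7 letters CCGGAAG, the core of ETS sites such as those of Gabpa, stood on either strand of 17 of 79 windows (21.5%), beside 2910 of all windows (8.86%). The cores do not overlap in their letters, and a match describes the window only. In the stretches below, 1 for each of the complexes with a match and 1 for cytochrome c, capitals mark the Nrf1 core.
Ndufa8, complex I (chr2:36049329-36049358, minus strand): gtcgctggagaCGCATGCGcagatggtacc
Uqcr11, complex III (chr10:80406808-80406837, minus strand): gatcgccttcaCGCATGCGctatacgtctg
Cycs, cytochrome c (chr6:50566612-50566641, minus strand): ccatgctagctCGCATGCGcgcgcacaaac
Cox6a1, complex IV (chr5:115349101-115349130, minus strand): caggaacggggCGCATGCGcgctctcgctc
Atp5g2, ATP synthase (chr15:102671070-102671099, minus strand): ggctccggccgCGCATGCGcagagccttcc
The 12 tested members with an Nrf1 core had log2 fold changes of 0.29 to 1.20, with a median of 0.70, and the 60 tested members whose windows lacked it had a median of 0.61. For the ETS core the medians were 0.69 in 17 members with it and 0.61 in 55 without it. In both cases the fold changes of the members without the letters, from -0.34 to 1.70, enclosed those of the members with them.

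Of the 113 members, 104 passed the expression filter, 10 or more counts in 4 or more of the 8 libraries. The untested rows were the 6 pseudogenes, with at most 2 counts in any library, and the tissue-restricted complex IV isoforms Cox7b2, Cox8b and Cox8c. Nuclear-encoded members were mostly higher and mitochondrially encoded members mostly lower in β-tetO-NICD islets, and few of them passed the test. The median log2 fold change of the 91 tested nuclear members was 0.61 (86 positive, 5 negative, range -0.34 to 1.70), and that of the 13 mitochondrially encoded members was -0.61 (2 positive, 11 negative, range -1.66 to 0.72). The median of all 15082 tested genes was 0.00071. By edgeR's quasi-likelihood test, with p-values adjusted after Benjamini and Hochberg over all tested genes at 0.05, 3 members rose (Ndufa8, Ndufc2 and Cox6b2), beside 4.19% of all tested genes, and 1 fell (mt-Nd5), beside 2.57%. Cox6b2 reached 10 counts in no control and in all 4 β-tetO-NICD libraries, so it entered the test only through the group in which it was high, and without it 2 members rose. At an unadjusted p under 0.05 the counts were 47 higher, beside 16.6% of all tested genes, and 4 lower, beside 15%. The control and β-tetO-NICD libraries did not overlap for 3 members higher in β-tetO-NICD (Ndufa4l2, Cox4i2 and Cox6b2), beside 8.22% of all tested genes, and for 1 lower (mt-Nd5), beside 7.92%. The called members and those without overlap were thus smaller shares of 104 than in all tested genes, in both directions. At the unadjusted threshold the higher members were a larger share and the lower members a smaller one.

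The number of calls depended most on β-tetO-NICD library 1. Without it, 65 of 103 tested members rose and 5 fell (edgeR, adjusted p under 0.05), beside 16.3% and 17% of the 14902 genes then tested, and the median log2 fold change of the nuclear members was 0.80 and that of the mitochondrially encoded members -0.65. Without control 3 the counts stayed at 3 higher and 1 lower (3.6% and 2.18% of all tested genes). Without control 1, 0 rose and 1 fell (2.21% and 1.1% of all tested genes), with 21 and 7 members at an unadjusted p under 0.05 (edgeR). Without any one of controls 2 and 4 and β-tetO-NICD libraries 2, 4 and 5, 0 rose and 0 fell, with 17 to 46 higher and 1 to 3 lower at an unadjusted p under 0.05 (edgeR), while 1.49% to 2.66% and 0.651% to 1.39% of all tested genes were called.

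The libraries differed in the direction of a trend with transcript length. For 14552 genes that are not members, the Spearman correlation between a gene's deviation from its mean log2 CPM (counts scaled to a common library size) and the length of its longest annotated transcript was 0.415, 0.465, -0.171 and 0.496 in controls 1 to 4, and 0.442, -0.519, -0.36 and -0.512 in the β-tetO-NICD libraries 1, 2, 4 and 5. Long transcripts thus had relatively more counts in β-tetO-NICD library 1 and in controls 1, 2 and 4, and short ones in control 3 and in the β-tetO-NICD libraries 2, 4 and 5. The nuclear members followed the same division. Their median deviation from the control mean was -0.10, -0.12, 0.39 and -0.16 log2 CPM in controls 1 to 4, and -0.12, 0.79, 0.43 and 1.19 in the β-tetO-NICD libraries 1, 2, 4 and 5. The highest control was the one with the negative trend, and the β-tetO-NICD library with a positive trend lay among the controls. The median of the mitochondrially encoded members did not follow it, with deviations of -0.61, 0.03, 0.09 and 0.52 in controls and -0.29, -0.48, -0.53 and -0.88 in the β-tetO-NICD libraries. Single members varied. The group difference of mt-Nd4l was -0.31 log2 CPM among libraries of positive trend and -2.04 among those of negative trend. For mt-Atp8 these values were -0.39 and -2.02, and for mt-Nd6 -0.85 and -0.74. What gave the libraries their length trend was not tested.

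**Figure D1:**
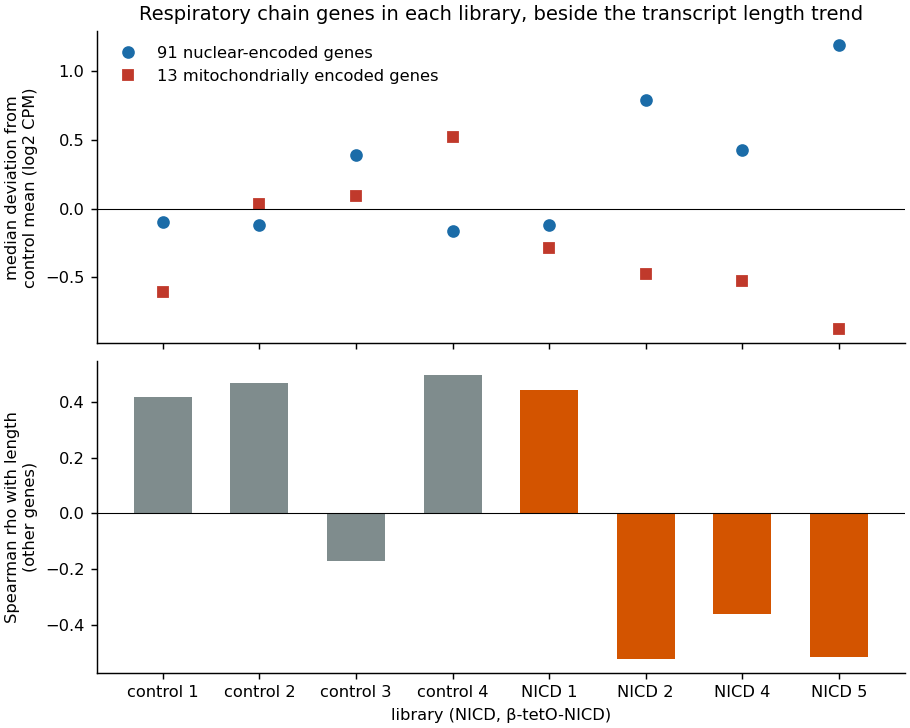
Upper panel, the median deviation (log2 CPM) from the control mean of the 91 tested nuclear-encoded (circles) and 13 mitochondrially encoded (squares) members in each library; lower panel, the Spearman correlation of all other genes' deviation with transcript length (controls grey, β-tetO-NICD orange). Nuclear members are highest in the β-tetO-NICD libraries 2, 4 and 5 and in control 3, the libraries with a negative correlation.

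Within the libraries of 1 trend, the group difference was smaller for the nuclear members. Between β-tetO-NICD library 1 and controls 1, 2 and 4, the nuclear members had a median difference of -0.0031 log2 CPM and the mitochondrially encoded members -0.32. Between β-tetO-NICD libraries 2, 4 and 5 and control 3, the medians were 0.43 and -0.74. Each of these comparisons has a group of 1 library, and no test was made within a trend. The sign for the mitochondrially encoded members was the same in both.

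Over all 8 libraries, the nuclear members had higher medians than other genes of like length. Among genes whose longest transcript was under 1 kb, 39 nuclear members had a median log2 fold change of 0.75 (38 positive), beside 0.66 for 768 other genes. From 1 to 2 kb the medians were 0.56 for 30 members (30 positive) and 0.38 for 2336 other genes. From 2 to 4 kb they were 0.37 for 17 members (14 positive) and 0.05 for 5931 others, and above 4 kb, 0.75 for 4 members and -0.29 for 5517 others. The median annotated transcripts of these 4 members are 572 to 2675.5 bases long, so their place in the longest class depends on the length used. Among the libraries of positive trend, the members did not have the higher medians in the classes below 4 kb. There the median differences were 0.02 log2 CPM for the members and 0.13 for the others under 1 kb, -0.03 and 0.05 from 1 to 2 kb, and -0.08 and 0.01 from 2 to 4 kb. Above 4 kb the median differences were -0.02 and -0.04. Among the libraries of negative trend they were 0.55 and 0.44, 0.42 and 0.26, 0.21 and 0.01, and 0.45 and -0.20. Across the 90 nuclear members with an annotated length, the fold change and the length had a Spearman correlation of -0.411, beside -0.484 across the 14552 other genes, which share the same libraries. The mitochondrially encoded members lay on the other side of the genes of their length, with a median of -0.38 for the 8 under 1 kb and -0.73 for the 5 from 1 to 2 kb.

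**Figure D2:**
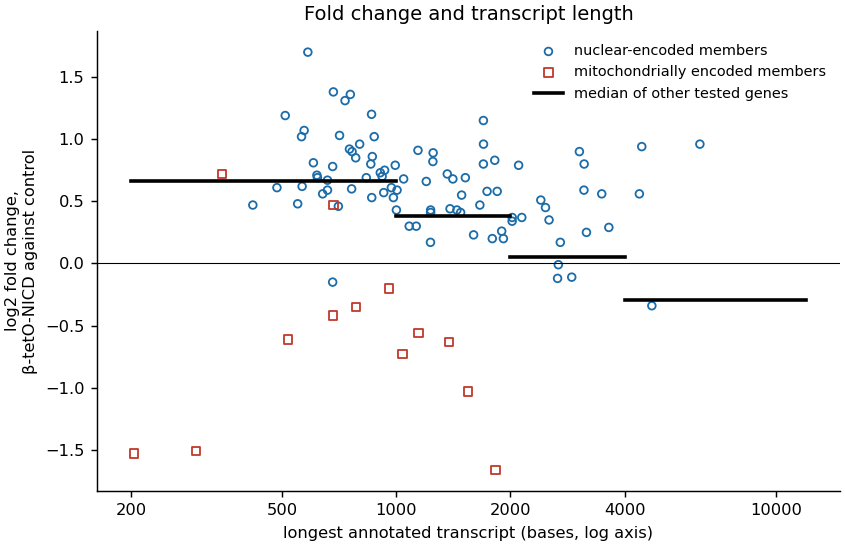
Log2 fold change (β-tetO-NICD against control) of the tested members against the length of their longest annotated transcript on a log axis, with the median of the other tested genes in each length class as black lines. The medians of the nuclear members (circles) lie above the lines in every class, and mitochondrially encoded members (squares) other than mt-Nd3 lie below them.

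When the length trend of the other genes was removed from each library by an offset, the medians were 0.13 for the nuclear members (60 positive, 31 negative) and -1.08 for the mitochondrially encoded ones, all 13 of which were negative. In that fit 4 members rose (Ndufa8, Ndufc2, Uqcr10 and Ndufs6; 3 with copies added, without Uqcr10), beside 5.76% of all tested genes, and 2 fell (mt-Nd5 and mt-Nd6), beside 4.48%. Ndufs6 is named here only for this count. With the median instead of the longest transcript length in the offset, 4 rose and 1 fell (5.2% and 3.24% of all tested genes), and the medians were 0.41 and -0.70, so the size of what remained for the nuclear members depended on the length used. With libraries scaled to Ppia, the reference gene of the study's PCR, 0 rose and 0 fell (edgeR, with 6 and 8 at an unadjusted p under 0.05), beside 0.61% and 0.457% of all tested genes, and DESeq2 on the same filtered counts called 21 members higher, beside 9.91% of all tested genes, and 3 lower, beside 8.25%. Ppia itself was at log2 0.54 (adjusted p = 0.161), and scaling by it moved the median of all tested genes to -0.43 and that of the nuclear members to 0.07.

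**Figure D3:**
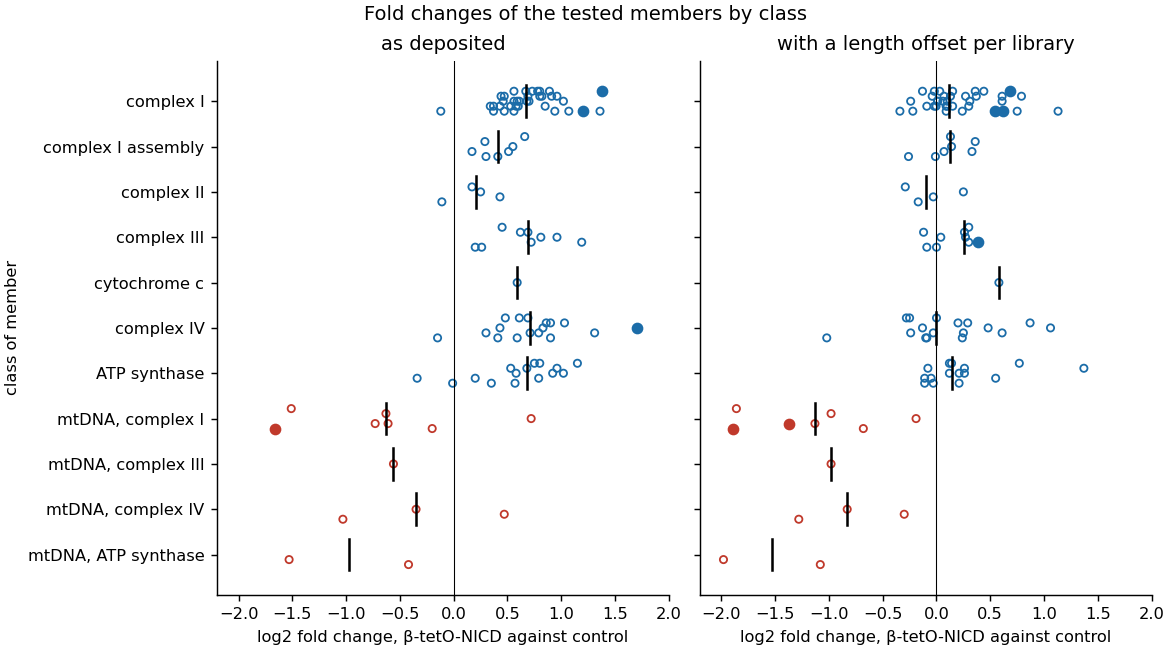
Log2 fold changes of the tested members by class (mtDNA, mitochondrially encoded), without Atp5s and Atp5sl, as deposited (left) and with a length offset per library (right); filled points passed edgeR's test at an adjusted p under 0.05, and black bars mark class medians. The medians of nuclear complexes I, III, IV and ATP synthase, 0.68 to 0.71 on the left, lie between 0.000087 and 0.26 on the right.

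Complex I oxidises NADH and is the largest complex of the chain. Of its 36 nuclear subunits 35 had a positive and 1 a negative fold change (median log2 0.68, with the offset 0.11). Of the 36, 2 were called higher, beside 4.19% of all tested genes. Ndufc2, an accessory subunit of the membrane arm (chr7:97400003-97407802, plus strand), had 33.1, 34.7, 64.9 and 34.1 CPM in controls 1 to 4 and 53.2, 124, 93.1 and 164 CPM in the β-tetO-NICD libraries 1, 2, 4 and 5. Control 3 exceeded β-tetO-NICD library 1, and the other β-tetO-NICD libraries were above every control. Its log2 fold change was 1.38 ± 0.35 (SE, n = 4 and 4; edgeR adjusted p = 0.0454), and 0.68 with the offset (adjusted p = 0.0226). Ndufa8, an accessory subunit with twin cysteine motifs (chr2:36036326-36049406, minus strand), had 31.7, 31.5, 46.2 and 32.3 CPM in controls and 43, 88.5, 65.3 and 128 CPM in the β-tetO-NICD libraries. As with Ndufc2, control 3 was the highest control and exceeded β-tetO-NICD library 1, and the other β-tetO-NICD libraries were above every control. Its log2 fold change was 1.20 ± 0.30 (edgeR adjusted p = 0.0463), and 0.54 with the offset (adjusted p = 0.0183). When single libraries were left out, the adjusted p of Ndufc2 was 0.00555 without β-tetO-NICD library 1, 0.0291 without control 3 and 0.0914 to 0.132 without any of the others. For Ndufa8 these values were 0.00497, 0.0489 and 0.0821 to 0.132. Both calls were also lost with the length trend as a covariate (Ndufc2 log2 0.57, adjusted p = 0.134, and Ndufa8 log2 0.51, adjusted p = 0.288) or by its sign (0.81, adjusted p = 0.0597, and 0.73, adjusted p = 0.14). The same was so with Ppia scaling (adjusted p = 0.161 and 0.197), with the acinar score as a covariate (0.0538 and 0.0623) and in libraries without Eif2s3y (0.464 and 0.428), while limma-voom kept Ndufc2 (0.0491) and not Ndufa8 (0.0557).

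Ndufs1, which carries iron-sulfur clusters of the electron path, was the only nuclear complex I subunit with a negative value. It had 77.3 ± 2.06 CPM in controls and 71.3 ± 8.70 CPM in the β-tetO-NICD libraries (SD, n = 4; log2 -0.12, adjusted p = 0.55), and its transcript of 2661 bases is among the longer ones. Ndufb11, the subunit with the highest level per length (182 CPM per kb of its longest transcript, mean of the 8 libraries), had 102 to 176 CPM in controls and 129 to 276 CPM in the β-tetO-NICD libraries. The groups overlapped, and the log2 fold change of 0.73 did not pass (adjusted p = 0.109). Of the 7 Ndufaf assembly factors, which help to build complex I without staying in it, all were positive and none was called (edgeR, 2 at an unadjusted p under 0.05). Their fold changes ran from 0.17 (Ndufaf7) to 0.66 (Ndufaf5, adjusted p = 0.123), and Ndufaf3 had 20.5 ± 3.68 CPM in controls and 30 ± 9.13 CPM in the β-tetO-NICD libraries.

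Complex II, succinate dehydrogenase, is also an enzyme of the citric acid cycle and has no mitochondrially encoded subunit. It had the smallest median log2 fold change of the nuclear complexes, 0.21, and no call (edgeR, 0 at an unadjusted p under 0.05). The sign of this median was not stable, since it was -0.10 with the offset, where 3 of the 4 subunits were negative. With Ppia scaling it was -0.28, beside -0.43 for the median of all tested genes in that fit. Sdha, the flavoprotein that oxidises succinate, had 210, 209, 221 and 212 CPM in controls and 186, 229, 203 and 170 CPM in the β-tetO-NICD libraries (log2 -0.11, adjusted p = 0.592). Sdhb, the iron-sulfur subunit, had 62 ± 12.2 CPM and 83.6 ± 22.1 CPM (log2 0.43, adjusted p = 0.198). For the membrane anchors Sdhc and Sdhd the log2 values were 0.25 (adjusted p = 0.409) and 0.17 (adjusted p = 0.596). In Sdhb and Sdhc, control 3 stood above the other controls, with 80.2 and 81.3 CPM.

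Complex III passes electrons from ubiquinol to cytochrome c. All 9 of its nuclear subunits were positive (median log2 0.69, with the offset 0.26), and none was called (edgeR, 5 at an unadjusted p under 0.05). Uqcr10, a small subunit (510 bases), had 44.8, 38.4, 57.1 and 38.5 CPM in controls and 50.3, 112, 85.4 and 159 CPM in the β-tetO-NICD libraries. β-tetO-NICD library 1 lay below control 3, and the other β-tetO-NICD libraries lay above all controls. The log2 fold change was 1.19 ± 0.31 (edgeR adjusted p = 0.0512), and 0.39 with the offset (adjusted p = 0.0429). With the counts of its copy Gm6293 added, the offset fit gave 0.37 (adjusted p = 0.0548), so that call was lost. Uqcrh, the hinge subunit and the highest per length of the complex (188 CPM per kb), had 85.7 to 139 CPM in controls and 107 to 338 CPM in the other group (log2 0.96, adjusted p = 0.0981). Cyc1, the haem-bearing cytochrome c1, had 43.2 ± 5.42 and 49.6 ± 7.01 CPM (log2 0.20, adjusted p = 0.378), and Cycs, the mobile carrier itself, 17.7 ± 1.92 and 26.7 ± 9.99 CPM (log2 0.59, adjusted p = 0.139). With the offset Cycs was at 0.58, and over all 26 alternative fits it ran from 0.03 to 0.84.

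Complex IV reduces oxygen to water, and several of its nuclear subunits exist as tissue-specific isoforms. Of 17 tested members 16 were positive (median log2 0.71, with the offset 0.000087). Cox6b2, described as a testis isoform (chr7:4751792-4753094, minus strand), had few counts in every library. It had 5, 5, 9 and 3 counts in controls 1 to 4 and 15, 12, 20 and 23 counts in the β-tetO-NICD libraries 1, 2, 4 and 5, or 0.23 ± 0.0966 against 0.765 ± 0.274 CPM. All β-tetO-NICD libraries were above all controls, and here library 1 was as high as libraries 2 and 4. Its fitted log2 fold change was 1.70 ± 0.43 (edgeR adjusted p = 0.0454), but it passed the filter only through the β-tetO-NICD libraries. With all genes of at least 1 count in any library tested, its adjusted p was 0.066, so the call was lost, and with the length offset it was 0.113 (log2 1.06). Its common counterpart Cox6b1 had 76.2 ± 12.1 and 125 ± 50.2 CPM (log2 0.71, adjusted p = 0.122).

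The other isoform pairs gave no call. Cox4i2, the isoform known from lung and induced by low oxygen, had 1.57, 1.65, 1.58 and 1.01 CPM in controls and 1.76, 3.19, 3.75 and 5.79 CPM in the β-tetO-NICD libraries. The groups did not overlap, but library 1 was close to the controls, and the log2 fold change was 1.31 ± 0.37 (edgeR adjusted p = 0.0595; 0.61 with the offset). The common Cox4i1 had 156 ± 48.3 and 291 ± 113 CPM (log2 0.90, adjusted p = 0.0987). Ndufa4l2, a paralogue of Ndufa4 that is also induced by low oxygen, had 4.2, 4.48, 4.15 and 3.33 CPM in controls and 5.23, 9.26, 6.08 and 7.41 CPM in the β-tetO-NICD libraries. Again the groups did not overlap, with a log2 fold change of 0.79 ± 0.23 (edgeR adjusted p = 0.064; 0.25 with the offset), while Ndufa4 had 0.41 (adjusted p = 0.321). The heart and muscle isoforms Cox6a2 and Cox7a1 stood at log2 values of -0.15 and 0.61 (adjusted p = 0.871 and 0.475), beside 0.69 and 0.59 for the common Cox6a1 and Cox7a2 (adjusted p = 0.114 and 0.175). Cox8b, another muscle isoform, had 1 count in control 4, 2 in β-tetO-NICD library 5 and 0 elsewhere, while the common Cox8a had 119 ± 19 and 166 ± 55.1 CPM. Cox7a2l, a factor that joins complexes III and IV, was the highest per length (370 CPM per kb) and had 374 ± 84.7 and 461 ± 181 CPM (log2 0.30, adjusted p = 0.491).

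ATP synthase turns the proton gradient into ATP. Of its 15 nuclear subunits 13 were positive (median log2 0.68, with the offset 0.14), and none was called (edgeR, 9 at an unadjusted p under 0.05). The catalytic subunit Atp5b, the highest per length (231 CPM per kb), had 427, 397, 442 and 383 CPM in controls and 402, 538, 503 and 455 CPM in the β-tetO-NICD libraries (log2 0.20, adjusted p = 0.371). Atp5e, a small subunit of the central stalk, had 70.7, 67.9, 109 and 61.6 CPM in controls and 75.7, 175, 128 and 307 CPM in the β-tetO-NICD libraries. β-tetO-NICD library 1 was again within the controls, and the log2 fold change of 1.15 ± 0.38 did not pass (edgeR adjusted p = 0.0896). Atp5g1, which encodes the c subunit of the rotor, was lowest with -0.34 (adjusted p = 0.436). Adding the counts of Gm10039, a pseudogene on chromosome 11 that is 99.8% identical to it, gave 63.4 to 82.6 CPM in controls and 47.9 to 104 CPM in the β-tetO-NICD libraries, with a log2 fold change of 0.20 (adjusted p = 0.547).

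Reads were divided between members and nearly identical pseudogenes, and this bears most on the mitochondrially encoded members. Of 51 annotated pseudogenes at least 95% identical to a member over at least 50% of their length, 11 matched mitochondrially encoded and 40 nuclear members. Copies of mitochondrial genes on chromosome 1 held 24.4% of the joint counts of mt-Co1 (Gm29216), 34.7% of those of mt-Co2 (Gm28661), 22.1% of those of mt-Atp6 (Gm10925) and 78.8% of those of mt-Nd3 (Gm28438). Of the nuclear members, Atp5g2 shared most, and Gm10175 held 93.2% of their joint counts. The division differed between libraries: Gm28661 had 27203 to 65161 counts in the other libraries and 285 in β-tetO-NICD library 5, whereas Gm29216 had its highest count there, 111372. Which reads came from the copy and which from the mitochondrial genome cannot be told apart in these counts, so values for these members are given with the copies added as well. Adding all 51 copies left 3 members higher and 1 lower (edgeR), the same 4 genes, beside 4.23% and 2.61% of all tested genes. The medians were 0.62 for the nuclear and -0.60 for the mitochondrially encoded members.

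The mitochondrially encoded members together held 1.99%, 3.42%, 3.58% and 4.81% of all counts in controls 1 to 4 (3.45% ± 1.16) and 2.46%, 2.24%, 2.59% and 1.89% in the β-tetO-NICD libraries 1, 2, 4 and 5 (2.3% ± 0.305, SD, n = 4). Control 1 lay among the β-tetO-NICD libraries. With copies added the means were 3.97% ± 1.27 and 2.78% ± 0.258. The nuclear members held 0.562%, 0.61%, 0.777% and 0.605% (0.639% ± 0.0948) and 0.554%, 1.02%, 0.924% and 1.13% (0.907% ± 0.25). The nuclear share was thus highest in the β-tetO-NICD libraries 2, 4 and 5, and these do not stand apart from library 1 in the mitochondrial share.

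mt-Nd5, a proton-pumping subunit of complex I (chrM:11742-13565, plus strand), fell. It had 954, 1816, 1142 and 3083 CPM in controls 1 to 4 and 910, 428, 522 and 348 CPM in the β-tetO-NICD libraries 1, 2, 4 and 5. Every β-tetO-NICD library lay below every control, by a small margin for library 1 against control 1. The log2 fold change was -1.66 ± 0.42 (SE; edgeR adjusted p = 0.0464), and -1.89 with the offset (adjusted p = 0.0431). Leaving out 1 library gave -1.24 (without control 4) to -2.01 (without β-tetO-NICD library 1). The adjusted p stayed under 0.05 without β-tetO-NICD library 1 (0.00898), control 1 (0.0481) or control 3 (0.0475), and was 0.0976 to 0.146 without any of the others. The call was also lost with Ppia scaling (log2 -1.93, adjusted p = 0.185), with the length trend as a covariate (log2 -1.01, adjusted p = 0.232) or by its sign (log2 -1.25, adjusted p = 0.0959), with the acinar score as a covariate (log2 -1.71, adjusted p = 0.0807) and in the 5 libraries without Eif2s3y (log2 -0.75, adjusted p = 0.461). Within the libraries of positive and of negative length trend, the difference was -0.94 and -1.42 log2 CPM.

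mt-Nd6, the only member encoded on the other strand of the mitochondrial genome (chrM:13552-14070, minus strand), overlaps mt-Nd5 by 14 bases and had 265 to 952 CPM in controls and 295 to 585 CPM in the β-tetO-NICD libraries (log2 -0.61, adjusted p = 0.268). Its call appeared only with the offset by longest transcript (log2 -1.37, adjusted p = 0.0335). Whether the authors' counting used the strand was not given in the sources used here. mt-Nd1, mt-Nd2 and mt-Nd4, further core subunits of complex I, had values of -0.20, -0.73 and -0.63 on the log2 scale, none past the test (adjusted p = 0.589, 0.159 and 0.142). mt-Cytb, the core of complex III, had 5234 ± 1284 CPM in controls and 3539 ± 708 CPM in the β-tetO-NICD libraries (log2 -0.56, adjusted p = 0.165).

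mt-Co1, the catalytic subunit of complex IV, had 6338, 9866, 10274 and 13530 CPM in controls and 7261, 4959, 5444 and 1966 CPM in the β-tetO-NICD libraries (log2 -1.03 ± 0.40, adjusted p = 0.123). With its copies these became 7566, 11423, 13662 and 15260 CPM, and 8574, 7953, 7604 and 7577 CPM. The low value of β-tetO-NICD library 5 was then level with the others, and the log2 fold change was -0.60 (adjusted p = 0.151). mt-Co2, which receives electrons from cytochrome c, was one of the members with a positive value (log2 0.47, adjusted p = 0.433), and with its copies it had -0.02 (adjusted p = 0.964). mt-Nd3, the other, moved from 0.72 (adjusted p = 0.176) to 0.09 (adjusted p = 0.853). mt-Co3 had -0.35 (adjusted p = 0.478), the same with its copies. mt-Atp6, the proton channel of ATP synthase, had -0.42 (adjusted p = 0.422), or -0.40 with its copies (adjusted p = 0.343).

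Set out by length, the longer mitochondrial mRNAs tended to differ more between the groups, with exceptions. With the bicistronic pairs summed and copies added, the difference of mean log2 CPM was 0.15 for mt-Nd3 (348 bases), -0.01 for mt-Co2 (684 bases) and -0.25 for mt-Co3 (784 bases). It was -0.53 for mt-Nd6 (519 bases), -0.37 for mt-Atp8 with mt-Atp6 (842 bases) and -0.16 for mt-Nd1 (957 bases). For mt-Nd2 (1038 bases) it was -0.78, and for mt-Cytb (1144 bases) -0.56. It was -0.55 for mt-Co1 (1545 bases), -0.72 for mt-Nd4l with mt-Nd4 (1668 bases) and -1.61 for mt-Nd5 (1824 bases). Thus mt-Nd6 and mt-Nd2 differed more than some longer mRNAs. Across the 11 mRNAs, the Spearman correlation of difference and span was -0.818, or -0.836 without the copies. Over all 13 members taken singly, with mt-Atp8 and mt-Nd4l as short genes of their own, it was -0.192. All 11 come from the same libraries, and the correlation is a description.

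**Figure D4:**
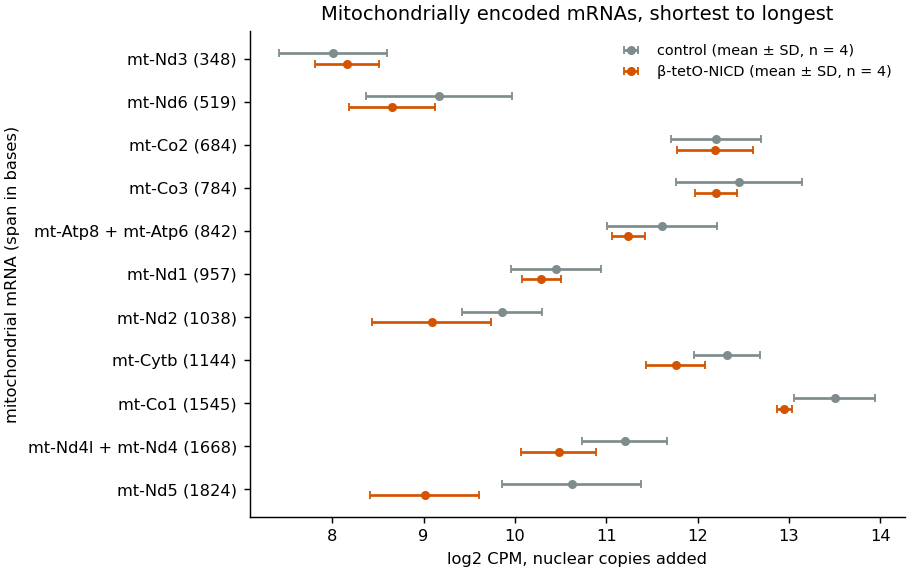
Mean log2 CPM ± SD (n = 4) of the 11 mitochondrial mRNAs in control (grey) and β-tetO-NICD (orange) libraries, ordered by span in bases, with nuclear copies added and bicistronic pairs summed. The groups are close for mt-Nd3 and mt-Co2 and farthest apart for mt-Nd5, the longest.

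The first frames of the bicistronic mRNAs departed from this order. mt-Nd4l, a small membrane subunit of complex I, had 240, 415, 191 and 588 CPM in controls and 313, 64.4, 112 and 13.8 CPM in the β-tetO-NICD libraries (log2 -1.51 ± 0.75, adjusted p = 0.191). mt-Atp8, a small subunit of ATP synthase, had 145, 149, 169 and 374 CPM in controls and 153, 49.3, 65.5 and 22.3 CPM in the β-tetO-NICD libraries (log2 -1.53 ± 0.54, adjusted p = 0.102). In both, β-tetO-NICD library 1 lay within the controls and libraries 2, 4 and 5 lay below them all. The same was so for mt-Nd2, mt-Nd4, mt-Cytb and mt-Co1 as deposited, though not for mt-Co1 with its copies. Without library 1, mt-Nd4l and mt-Atp8 passed (edgeR adjusted p = 0.0193 and 0.00907). So did mt-Nd4 (0.0439), mt-Co1 (0.0383) and mt-Nd5 (0.00898), in a fit that called 17% of all tested genes lower.

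The frames of 1 mRNA did not move alike. Per 100 counts of mt-Nd4 there were 16.2, 18.4, 11 and 20.2 counts of mt-Nd4l in controls 1 to 4 (16.5 ± 3.98) and 17.4, 5.62, 8.24 and 1.26 in the β-tetO-NICD libraries 1, 2, 4 and 5 (8.13 ± 6.83, SD, n = 4). Per 100 counts of mt-Atp6 there were 11.3, 8.54, 5.75 and 9.91 of mt-Atp8 in controls (8.88 ± 2.38) and 10.4, 3.08, 4.03 and 0.854 in the β-tetO-NICD libraries (4.6 ± 4.12). With the copies of mt-Atp6 added these became 8.91, 5.2, 4.52 and 8.88, and 5.95, 2.29, 3.16 and 0.847. In both pairs the lowest ratios were those of β-tetO-NICD libraries 2, 4 and 5, the lowest control was control 3, and β-tetO-NICD library 1 lay within the controls. These are the same 4 libraries in which short transcripts had relatively more counts. How reads were assigned between genes and copies also differed between libraries, and the part of either in the ratios and in the lower mitochondrially encoded counts was not tested.

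**Figure D5:**
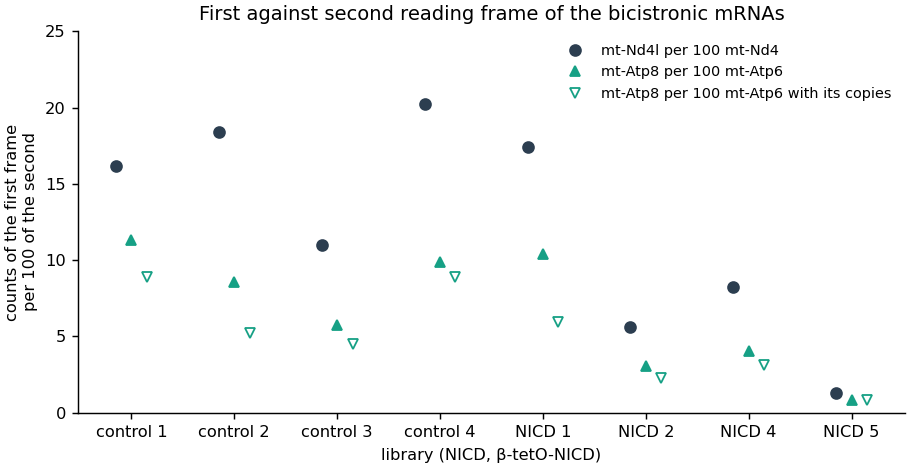
Counts of the first reading frame per 100 counts of the second in each library, for mt-Nd4l with mt-Nd4 (circles) and mt-Atp8 with mt-Atp6, as deposited (filled triangles) and with the copies of mt-Atp6 added (open triangles). β-tetO-NICD libraries 2, 4 and 5 have the lowest ratios, followed by control 3.

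Other genes of the mitochondrial programme were read from the same fit. Of 23 tested regulators of mitochondrial biogenesis 1 rose, beside 4.19% of all tested genes, and the median log2 fold change was -0.09. That gene was Esrrb, an orphan nuclear receptor, at 0, 0.127, 0.0396 and 0.0406 CPM in controls and 1.43, 0.437, 0.73 and 0.705 CPM in the β-tetO-NICD libraries (edgeR adjusted p = 0.0106). It too passed the filter only through the β-tetO-NICD libraries, and no fold is given against so low a level. With all genes of at least 1 count in any library tested, its adjusted p was 0.0103. Ppargc1a, the coactivator of the programme, had 0.44 (adjusted p = 0.532), Nrf1 -0.09 (adjusted p = 0.722), Gabpa -0.38 (adjusted p = 0.241) and Esrra 0.24 (adjusted p = 0.34). Tfam, which packages mitochondrial DNA and starts its transcription, had 31.3 ± 8.12 and 46.4 ± 10.4 CPM (log2 0.56, adjusted p = 0.124). Of 41 assembly factors for complexes I to V outside the symbol rule, none was called (edgeR) and the median was 0.22, or -0.04 with the offset. Among 7 carriers, channels and uncouplers and 11 genes of mitochondrial dynamics and quality control none was called either, with medians of 0.29 and -0.14 (0.05 and -0.09 with the offset).

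Ribosomal protein genes were mostly positive too. Of 79 tested proteins of the mitochondrial ribosome, which translates the 13 mitochondrially encoded members, 78 were positive, with a median log2 fold change of 0.58 (0.20 with the offset), and 1 rose, beside 4.19% of all tested genes, Mrpl36 (log2 1.04 ± 0.26, edgeR adjusted p = 0.0434). Of 84 cytosolic ribosomal protein genes 83 were positive, with a median of 1.06 (0.46 with the offset), and 12 rose, a larger share than those 4.19%, among them Rpl35 (log2 1.63, adjusted p = 0.0128), Rpsa (1.02, adjusted p = 0.0258) and Rpl10a (1.04, adjusted p = 0.0291). When single libraries were left out, Mrpl36 and Rpsa each passed in 2 of 8 fits, Rpl10a in 3 and Rpl35 in 7 (edgeR).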

How the data were processed

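Islet poly(A) libraries (TruSeq Stranded mRNA) of 4 control and 4 β-tetO-NICD mice were analysed. The authors pseudoaligned reads to the GRCm38 transcriptome with Kallisto (version not given in the sources used here) and deposited whole-number gene counts, which were used as deposited. A deposited table of the authors' limma comparison (fold changes, mean expression and p-values) was not used. Members and lists were chosen with earlier results of these data known. Genes reaching 10 counts in 4 or more libraries were fitted with edgeR 4.0.16 (TMM, quasi-likelihood test, R 4.3.3), with Benjamini-Hochberg adjustment over all tested genes and a threshold of 0.05. CPM use TMM-scaled library sizes, and SE is the fold change divided by the root of F. The length offset was a lowess curve (span 0.3) of other genes' deviations on log2 length of the longest GENCODE M21 transcript. Copies were pseudogenes found with blastn 2.17.0+. Alternatives were DESeq2 1.42.0, limma 3.58.1 (voom), other factors, filters, covariates and libraries left out. On simulated counts, 91% of 100 genes changed 4-fold and 30% of 100 changed 2-fold were recovered. Named genes were all mitochondrially encoded members, Sdha to Sdhd, Cyc1, Cycs, the extremes, highest per length and called members of each class, and the isoform pairs. Library totals ranged from 21701223 to 26413146, and no 2 libraries of a group agreed within counting noise. Whether β-tetO-NICD columns 4 and 5 belong to the mice labelled 3 and 4 could not be settled, and p-values measure the spread between these libraries.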

Additional observations from a re-analysis of the deposited data

Results flagged for a closer look

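In 13 of 98 groups of 4 libraries examined, 1 library stood far from the other 3, measured as its gap to the nearest library divided by the range of the group. For independent groups chance would give about 1 in 20, or 4.9. The groups here share the same libraries and are not independent, so 13 cannot be tested against 4.9. Control 3 was the highest control for Sdhb (0.903; 80.2 CPM, next 56.8), Sdhc (0.907; 81.3, next 57), Ndufc2 (0.95; 64.9, next 34.7), Ndufb11 (0.857; 176, next 112), Ndufa8 (0.942; 46.2, next 32.3), Cox6b1 (0.886; 94.3, next 72) and Cox7a2 (0.926; 107, next 67.6). It is the control with a negative length trend. Control 4 was highest for mt-Atp8 (0.895; 374 CPM, next 169) and lowest for Cox4i2 (0.875; 1.01 CPM, next 1.57). Control 2 was lowest for mt-Nd3 (0.867; 29.6 CPM, next 50.6), and with its copies it had 203 CPM beside 168 in control 1. β-tetO-NICD library 5 was highest for mt-Atp6 (0.86; 2614 CPM, next 1624), while with the copies it had 2634 CPM beside 2569 in β-tetO-NICD library 1. For Cox8b, control 4 and β-tetO-NICD library 5 gave 1 because the other libraries of their groups had 0 counts.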

How the results depend on the processing

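The direction of both medians held in every refit, although the nuclear difference was near 0 within the libraries of positive length trend (-0.0031, without a fit), with leave-one-out ranges of 0.39 to 0.80 for the nuclear-encoded and -0.76 to -0.41 for the mitochondrially encoded members. The nuclear median moved to 0.07 with Ppia scaling, 0.13 with the length offset, 0.14 with copies and the offset, 0.03 and 0.22 with the length trend as a covariate and by its sign, and 0.25 in libraries without Eif2s3y. Ppia scaling also moved the median of all tested genes, to -0.43. The mitochondrially encoded median (-0.61) was -0.21 with the replicate block and -0.23 in libraries without Eif2s3y, and -1.08 with the length offset, -0.98 with copies and the offset and -0.97 with Ppia scaling. The complex II median (0.21) was -0.28 with Ppia scaling, -0.14 and -0.06 with the length trend as a covariate and by its sign, just below 0 in libraries without Eif2s3y and -0.10 with either offset fit by longest transcript, and that of complex IV was -0.01 with copies and the offset. The counts of 3 higher and 1 lower became 21 and 3 with DESeq2. The count of higher members was 5 with upper-quartile factors (5.43% of all tested genes) and 5 with at least 10 counts in every library (4.74%). Both counts were 0 with Ppia scaling, with the length trend as a covariate or by its sign, with the acinar score as a covariate, and in libraries without Eif2s3y (edgeR, at an unadjusted p under 0.05 with 6 and 8, 3 and 2, 8 and 3, 49 and 2, and 0 and 0, in that order, where 0.61% and 0.457%, 1.88% and 0.942%, 2.4% and 1.63%, 2.97% and 1.84%, and 0.512% and 0.208% of all tested genes were called). In the length offset fits, with or without copies, 2 members were lower. Without β-tetO-NICD library 1 and control 3, an alternative chosen after seeing the data like those with copies and with median length, 74 members were higher and 4 lower (19.5% and 20% of all tested genes). Leaving out 1 library gave 0 to 65 higher and 0 to 5 lower. Signs turned, all without a call before or after. With Ppia scaling, beside a median of -0.43 for all tested genes, the values were mt-Co2 -0.12, Sdhb -0.06, Sdhc -0.24, Sdhd -0.32, Cyc1 -0.25, Ndufaf7 -0.33, Cox7a2l -0.25, Atp5b -0.25, Cox7a1 -0.06, Cox8a -0.06 and Ndufa4 -0.14. With the length offset they were mt-Co2 -0.30, mt-Nd3 -0.19, Sdhb -0.03, Sdhd -0.29, Cyc1 -0.09, Cox7a2l -0.24, Atp5b -0.05, Cox6b1 -0.03, Cox7a1 -0.28, Cox7a2 -0.10, Cox8a -0.25 and Ndufa4 -0.09. With the length trend as a covariate they were mt-Co2 -0.26, Sdhb -0.03, Sdhc -0.11, Sdhd -0.25, Ndufaf7 -0.21, Cox7a2l -0.40, Cox7a1 -0.64, Cox7a2 -0.05, Cox8a -0.03 and Ndufa4 -0.22. With its sign as a term they were mt-Co2 -0.04, Sdhd -0.13, Ndufaf7 -0.09, Cox7a2l -0.18, Cox7a1 -0.13 and Ndufa4 -0.02. In libraries without Eif2s3y they were mt-Nd1 0.16, Sdhd -0.01, Ndufaf7 -0.03 and Cox7a1 -0.30. With copies added they were mt-Co2 -0.02 and Atp5g1 0.20, and with copies and the offset mt-Co2 -0.70, mt-Nd3 -0.67, Sdhb -0.04, Sdhd -0.29, Cyc1 -0.09, Cox7a2l -0.26, Atp5g1 0.42, Atp5b -0.05, Cox6a1 -0.01, Cox6b1 -0.03, Cox7a1 -0.29, Cox7a2 -0.10, Cox8a -0.26 and Ndufa4 -0.09. Leaving out 1 library moved Cox6a2 between -0.82 and 0.26 and Cox7a1 between -0.0049 and 0.92. The cause was not tested.

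Only numbers 1 and 2 occur as settled replicate numbers in both groups. Deviations of same-numbered libraries correlated at 0.276 and -0.09, and those of differently numbered ones at -0.09 and 0.163. So few values cannot settle whether the numbers pair the samples. With the replicate block on these 4 libraries, 1 member was higher and 0 lower (2.25% and 1.78% of all tested genes; edgeR, 10 and 4 at an unadjusted p under 0.05), mt-Nd5 was at -1.07 (adjusted p = 0.0736), and signs turned for mt-Atp6 0.04, mt-Co3 0.42, mt-Nd1 0.32 and Cox7a1 -0.34.

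The depth limits Cox6b2, Cox7b2, Cox8b and Cox8c, which had at most 23 counts in any library.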

Other observations

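Counts of Eif2s3y, on the Y chromosome, were 0, 1300, 1 and 1527 in controls 1 to 4 and 1, 0, 0 and 1465 in the β-tetO-NICD libraries 1, 2, 4 and 5, so that both groups held libraries with and without it, although the methods describe the islets as male. Ins1 and Ins2 together held 15.9% ± 1.13 of counts in controls and 10.2% ± 3.23 in β-tetO-NICD libraries (SD, n = 4), with 6.16% in β-tetO-NICD library 1 and 9.65% to 13.9% in the others. β-tetO-NICD library 1 also had the highest acinar score, a mean of 12.97 log2 CPM over 14 enzyme genes, against 11.17 to 12.39 in the other libraries.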
